A study of Mus musculus with 2 samples.

Results

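The 10 genes described here hold the cell cycle or answer DNA damage and were followed in single cells sorted as group 3 innate lymphoid cells (ILC3s) from the gut wall of aged mice. They are 10 of 23679 genes in the count tables and were listed by name, by a rule that uses no measured value but was made with earlier results of these data known: the CDK inhibitors Cdkn1a, Cdkn1b, Cdkn2a and Cdkn2d, the p53 gene Trp53 with its regulator Mdm2, the stress genes Gadd45a, Gadd45b and Gadd45g, and the p53 target Sesn1. All 10 had at least 1 UMI (a counted transcript molecule) in each replicate, and 9 of 10 passed the filter on low counts. Cdkn2a did not, and its counts are described without a test. The cells came from the lamina propria of the small intestine of male C57BL/6 mice aged 18 months. The labels give no treatment or genotype, so the design holds 1 group of n = 2 replicates and no young or mutant cells. They do not say whether the replicates were separate animals. Every SE and p-value below therefore speaks only for these 2 samples, whose spread may be technical.

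Progression through G1 depends on cyclin-dependent kinases (CDKs), which CDK inhibitors block. Proteins of the Cip/Kip family (Cdkn1a, encoding p21, and Cdkn1b, encoding p27) bind cyclin-CDK complexes, whereas the INK4 proteins (p16 from Cdkn2a, p19 from Cdkn2d) bind Cdk4 and Cdk6. DNA damage stabilises p53, which switches on Cdkn1a, Mdm2, Gadd45a and Sesn1, and Mdm2 in turn marks p53 for destruction. Cdkn1a and the Gadd45 genes are also switched on without p53, by growth factor, cytokine and stress signals, and p16 is widely used as a marker of senescent cells.

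After filtering, 3337 cells with 6939790 UMIs in replicate 1 and 3840 cells with 6810214 UMIs in replicate 2 remained, with medians of 1880.0 and 1674 UMIs per cell. They were split by the UMIs of 6 genes. CD3 cells held a UMI of Cd3d, Cd3e or Cd3g, the T cell receptor's signalling chains (1149 and 1117 cells in replicates 1 and 2). Among cells with none of these, Ncr1 cells held a UMI of Ncr1, the NKp46 receptor of an ILC3 subset (608 and 438), Ccr6/Cd4 cells a UMI of Ccr6 or Cd4 but none of Ncr1, as lymphoid tissue inducer cells can (128 and 79), and the remaining cells held none of the 6 genes (1452 and 2206). A cell without a UMI of a gene may still express it, so the remaining cells are not a cell type. The label ILC3 was checked against some of its markers. Il7r had a UMI in 84.8% to 94.3% of cells of every group, but Kit in only 13.5% and 11.4% of CD3 cells against 32.3% to 51.5% of cells of the other groups. Trac, a T cell receptor gene, had a UMI in 62.6% and 57.3% of CD3 cells. In the other groups Trac was found in 4.79% to 16.5% of cells. A UMI of any T cell receptor constant gene was found in 97.7% and 96.2% of CD3 cells and 92.1% and 84.7% of Ncr1 cells. In the remaining cells the shares were 78.3% and 78.7%, and in Ccr6/Cd4 cells 57.03% and 60.8%. Cells without a CD3 UMI were thus not free of T cell receptor RNA. The replicates stood apart in other ways: 16.5% of cells held a UMI of the stromal gene Col1a1 in replicate 1 and 1.04% in replicate 2, Igkc (antibody light chain) was found in 36.0% and 4.32%, Fos in 86.5% and 51.4%, and Hspa1a in 3.33% and 9.90%. The 2 libraries shared 303 cell barcodes, 10 of them among the cells of both samples.

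**Figure D1:**
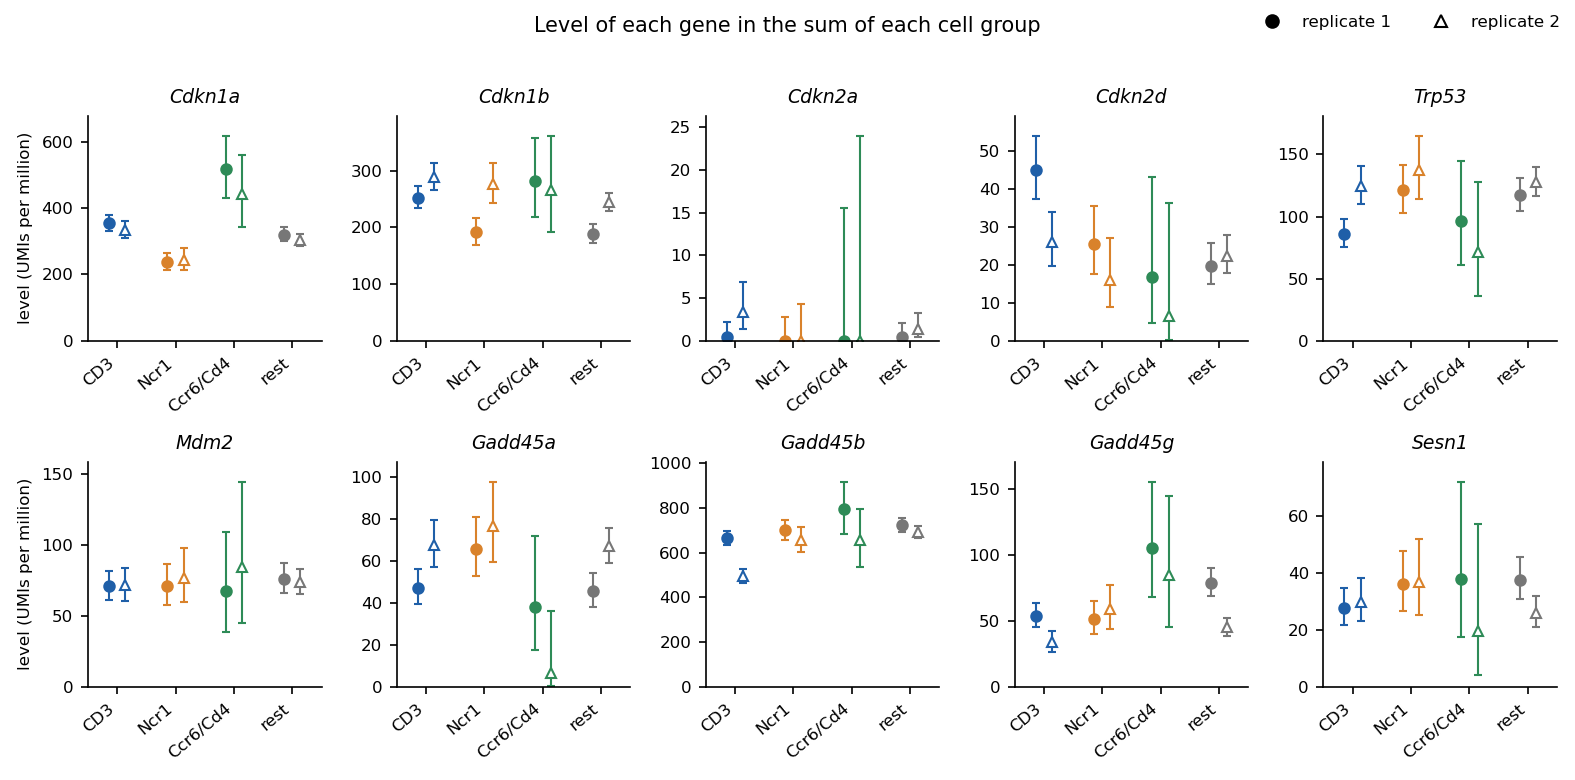
Level of each of the 10 genes in CPM (UMIs per 1000000 UMIs) of each summed cell group (y axis, from 0, on a scale of its own for each gene), for replicate 1 (filled circles) and replicate 2 (open triangles), with exact Poisson 95% intervals that cover counting error only. Cdkn1a was highest in Ccr6/Cd4 cells (517 and 442) and lowest in Ncr1 cells (238 and 243), Cdkn2d was highest in CD3 cells (45.0 and 26.0), and Cdkn2a was near 0 in every group.

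The promoters of 4 genes are shown: Cdkn1a, the only 1 of the 10 genes called between the Ncr1 and Ccr6/Cd4 cells, Cdkn2d and Gadd45g, the members called in CD3 cells, and Gadd45b, the member found in most cells. Each is the 150 bases before a RefSeq start site on GRCm38.p6, written 5′ to 3′ on the gene's strand, which is minus for Cdkn2d and plus for the others. Capitals mark p53 half-sites (the 10-base p53 consensus half-site, searched by name), the CCAAT box (CCAAT) and the TATA box (TATAAA), on both strands. The windows are chr17:29090829-29090978 for the upstream of 2 Cdkn1a start sites, chr9:21291210-21291359 for Cdkn2d, chr10:80929941-80930090 for Gadd45b and chr13:51846525-51846674 for Gadd45g.
Cdkn1a: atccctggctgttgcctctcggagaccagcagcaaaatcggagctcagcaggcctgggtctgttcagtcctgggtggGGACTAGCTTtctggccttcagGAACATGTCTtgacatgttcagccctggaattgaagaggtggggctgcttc
Cdkn2d: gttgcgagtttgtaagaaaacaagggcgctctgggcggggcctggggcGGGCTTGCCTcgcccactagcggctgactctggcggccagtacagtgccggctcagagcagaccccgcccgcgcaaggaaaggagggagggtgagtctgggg
Gadd45b: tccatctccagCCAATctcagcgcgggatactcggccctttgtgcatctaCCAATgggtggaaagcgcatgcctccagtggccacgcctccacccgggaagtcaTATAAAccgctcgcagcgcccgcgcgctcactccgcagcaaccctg
Gadd45g: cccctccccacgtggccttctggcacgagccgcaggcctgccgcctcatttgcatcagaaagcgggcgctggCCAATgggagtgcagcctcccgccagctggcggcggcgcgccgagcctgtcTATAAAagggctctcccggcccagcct
The Cdkn1a window held p53 half-sites starting 73 and 51 bases before the start site, and 4.01% of all 32851 RefSeq promoters held one in a window of this length. Such a half-site was also found in the windows of Cdkn2d (102 bases before the start), Trp53 (75) and Gadd45a (40), so in 4 of the 10 genes, and not in the window of the other Cdkn1a start site. Gadd45b held CCAAT boxes at 139 and 100 bases and a TATA box at 46 bases before its start, and Gadd45g a CCAAT box at 78 and a TATA box at 27 bases. Of all promoters, 24.5% held a CCAAT box and 7.57% a TATA box. None of the 4 windows shown held TGANTCA (AP-1, in 4.24% of promoters) or TGACGTCA (CRE, in 1.36%). These letters describe the sequence and are not shown to be bound here.

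Cdkn1a was the member that differed most clearly among the groups without a CD3 UMI: it was lower in Ncr1 than in Ccr6/Cd4 cells. The gene lies at chr17:29090976-29100727 on the plus strand, and p21 stops the cell cycle after damage and on leaving it. In Ccr6/Cd4 cells its level was 517 and 442 UMIs per 1000000 UMIs of the summed group (written CPM below) in replicates 1 and 2. In CD3 cells it was 354 and 334, in the remaining cells 320.0 and 303, and in Ncr1 cells 238 and 243. The groups kept this order in both replicates, and no neighbours in it overlapped. How many of all tested genes show such an order was not counted. With n = 2 a lack of overlap, here and for the genes below, is only a description. Ncr1 cells were below Ccr6/Cd4 cells by a log2 ratio of -0.92 ± 0.15 (SE), 1.89-fold, with -1.08 in replicate 1 and -0.77 in replicate 2 (adjusted p = 0.000191 by edgeR's quasi-likelihood test). Cdkn1a was 1 of 9 tested members called in this comparison, in which 4.56% of all 9637 tested genes were called, 2.37% higher and 2.19% lower in Ncr1 cells. The call ended without the sample as a block (log2 ratio -0.90, adjusted p = 0.158) and when CD3-zero cells with any T cell receptor constant UMI were left out (-0.86, adjusted p = 0.268), which kept 48 and 67 Ncr1 cells and 55 and 31 Ccr6/Cd4 cells. An exon of the antisense gene AC167363.2 overlaps Cdkn1a, and whether counting used the strand is not given in the sources used here, so their reads cannot be told apart.

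Both the share of cells with a Cdkn1a UMI and the UMIs per such cell were higher in Ccr6/Cd4 than in Ncr1 cells. At counts this low a change of level alone moves both. The values therefore do not tell more expressing cells from more RNA per cell. A UMI was found in 48.4% and 46.8% of Ccr6/Cd4 cells and in 33.1% and 32.6% of Ncr1 cells, although the Ncr1 cells were deeper (medians of 2045 and 1860 UMIs against 1629 and 1670). With each cell thinned to 1000 UMIs, the shares were 31.9% (exact 95% interval 23.7% to 41.1%) and 37.8% (26.8% to 49.9%) in Ccr6/Cd4 cells and 18.8% (15.7% to 22.1%) and 20.0% (16.3% to 24.2%) in Ncr1 cells. Cells under 1000 UMIs were left out, which kept 93.0% and 93.7% of Ccr6/Cd4 cells and 97.4% and 95.7% of Ncr1 cells. Positive cells held a mean of 1.98 and 1.84 UMIs in Ccr6/Cd4 cells and 1.58 and 1.48 in Ncr1 cells. The highest cell, a CD3 cell of replicate 1, held 20 Cdkn1a UMIs, and the top 1% of cells held 5.69% to 11.3% of the Cdkn1a UMIs of each group and replicate. No cell group here is known to lack Cdkn1a or the other members, so a background share from free RNA was not measured.

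Immediate early genes, which respond within minutes to stimulation or tissue handling, were lower together with Cdkn1a in this comparison. Of 12 tested, 0 rose and 5 were lower in Ncr1 than in Ccr6/Cd4 cells by edgeR: Egr1 by a log2 ratio of -1.65, Atf3 by -0.89, Jun by -0.74, Zfp36 by -0.63 and Fosb by -0.51. The list's median was -0.37 against 0.10 for all tested genes. Its summed level was 30226 and 14843 CPM in Ccr6/Cd4 cells and 19876 and 12382 in Ncr1 cells. In CD3 cells the sum was 19312 and 9725, in replicate 1 close to that of Ncr1 cells, and Cdkn1a was second highest. Of 7 tested heat shock genes, only Dnaja1 was called, lower in Ncr1 cells (-1.23), and the list summed to 3645 and 6885 in Ccr6/Cd4 cells against 2081 and 5127 in Ncr1 cells. Stromal genes went the other way, with 4 of 7 called higher in Ncr1 cells and sums of 3253 and 36.7 against 534 and 26.0. So did free immunoglobulin RNA, with 2 of 3 genes called higher in Ncr1 cells and sums of 6515 and 5569 against 2333 and 32.5. B cell markers other than immunoglobulin genes summed to 846 and 796 in Ncr1 cells against 198 and 26.0 in Ccr6/Cd4 cells, with 1 of 4 tested genes called higher. These calls are edgeR's, and DESeq2 called 1 stromal gene, 0 immunoglobulin genes and 0 B cell markers in this comparison. With cells holding at least 3 UMIs of B cell, myeloid, stromal or epithelial markers left out, Fcer1g not counted, Cdkn1a differed by -0.91 (adjusted p = 1.18e-05 by edgeR). The part of the immediate early, heat shock and immunoglobulin genes in the Cdkn1a difference was not tested.

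**Figure D2:**
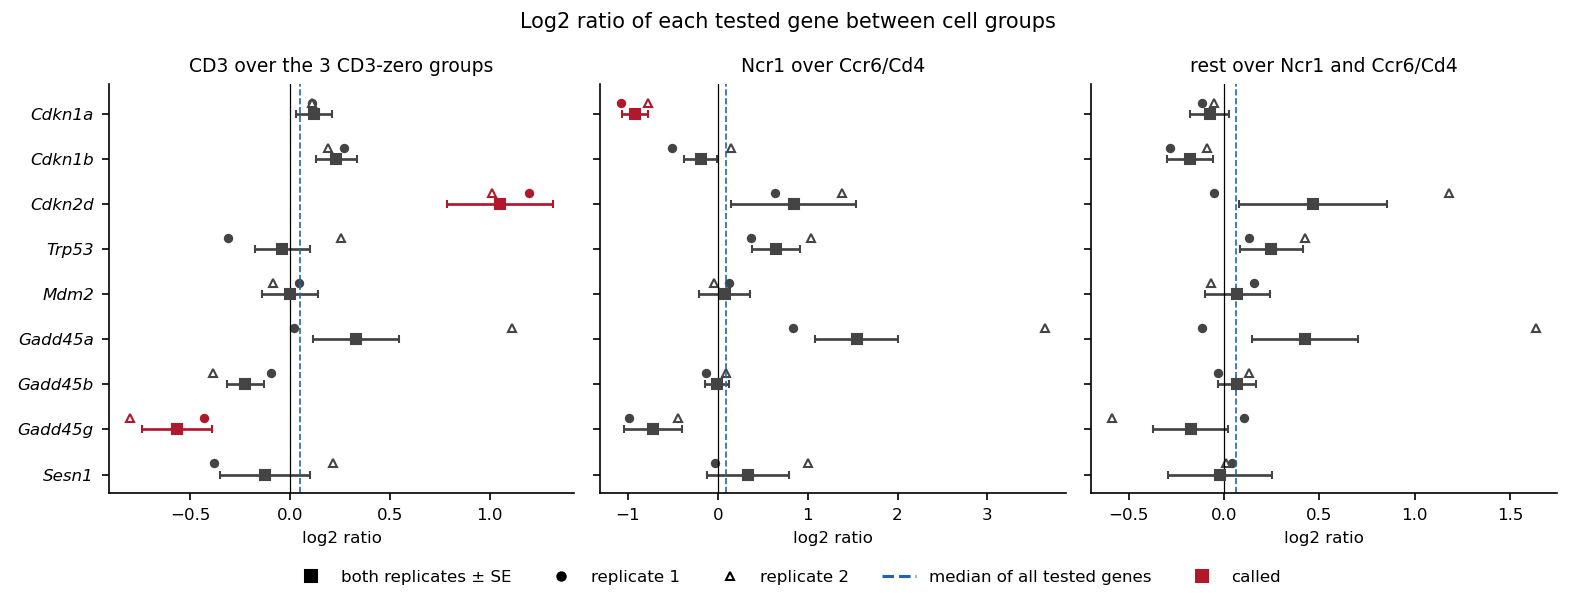
Log2 ratio of each of the 9 tested genes in 3 comparisons between cell groups. Squares and bars are edgeR's estimate over both replicates with its SE, circles and triangles are replicates 1 and 2 alone, red marks an adjusted p under 0.05, and the dashed line is the median of all 9637 tested genes. The called genes were Cdkn2d (higher) and Gadd45g (lower) in CD3 cells and Cdkn1a (lower) in Ncr1 cells.

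Cdkn1b, whose p27 protein holds resting lymphocytes out of the cycle (chr6:134920401-134925513, plus strand), was not called in any of the 3 comparisons. Its level was 252 and 289 CPM in CD3 cells, 191 and 277 in Ncr1 cells, 282 and 266 in Ccr6/Cd4 cells and 189 and 245 in the remaining cells. Replicate 2 was above replicate 1 in 3 of 4 groups. The remaining cells lay below both CD3 and Ccr6/Cd4 cells without overlap, and the Ncr1 cells overlapped every other group. The log2 ratio of CD3 over CD3-zero cells, taken as the mean of the 3 CD3-zero groups with equal weight, was 0.23 ± 0.10 (0.27 and 0.19 by replicate, adjusted p = 0.15 by edgeR). When the CD3-zero cells were summed as 1 group, so that the numerous remaining cells weighed most, the ratio was 0.30 and was called (adjusted p = 0.00605). Ncr1 over Ccr6/Cd4 cells gave -0.19 (95% interval -0.54 to 0.16), with replicates on opposite sides of 0 (-0.52 and 0.14).

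Cdkn2d, encoding the INK4 protein p19, was higher in CD3 cells (chr9:21288410-21291407, minus strand). Its level was 45.0 and 26.0 CPM in CD3 cells, 25.4 and 16.1 in Ncr1 cells, 16.8 and 6.50 in Ccr6/Cd4 cells and 19.7 and 22.3 in the remaining cells. CD3 cells were highest within each replicate, although replicate 2's CD3 cells (26.0) were barely above replicate 1's Ncr1 cells (25.4). These levels rest on 118 and 55 UMIs in CD3 cells, 34 and 14 in Ncr1 cells, 4 and 1 in Ccr6/Cd4 cells and 54 and 82 in the remaining cells. CD3 over CD3-zero cells gave a log2 ratio of 1.05 ± 0.27, 2.07-fold, with 1.20 and 1.01 by replicate (adjusted p = 0.00677 by edgeR). The call ended with DESeq2 (1.03, adjusted p = 0.095) and without the block (1.05, adjusted p = 0.197). With the CD3-zero cells summed as 1 group, which gives the Ccr6/Cd4 cells little weight, the ratio was 0.77 (adjusted p = 0.00064). After thinning, 4.49% (95% interval 3.35% to 5.88%) and 3.01% (2.07% to 4.22%) of CD3 cells held a UMI, against 1.69% and 1.19% of Ncr1 cells and 1.96% and 1.68% of the remaining cells. In Ccr6/Cd4 cells the shares were 3.36% (0.923% to 8.38%) and 1.35% (0.0342% to 7.30%), and their intervals hold those of the CD3 cells. For single cells this is near the limit of detection, since 83.8% and 96.2% of positive CD3 cells held only 1 UMI.

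Cdkn2a, the gene of p16 and of the p53 activator p19Arf, was almost undetected (chr4:89274471-89294653, minus strand). The tables count the gene as a whole, so its transcripts cannot be told apart. It had 2 UMIs in 3337 cells of replicate 1 and 12 in 3840 cells of replicate 2: 1 and 7 in CD3 cells, 1 and 5 in the remaining cells, and 0 in the other groups. The 7 UMIs in CD3 cells of replicate 2 came from 5 cells. In Ncr1 cells, 0 of 608 and 0 of 438 allow a share of cells with a UMI of up to 0.493% and 0.685%, and in Ccr6/Cd4 cells 0 of 128 and 0 of 79 allow up to 2.34% and 3.80%. Over all cells the share was 0.0599% and 0.26%. These limits cover counting error only, and at this depth a low level in many cells was not detectable.

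Of the other CDK inhibitor genes, Cdkn1c, Cdkn2b, Cdkn2c and Cdkn3, only Cdkn1c (p57) passed the filter. It was lower in CD3 cells, at 3.43 and 8.04 CPM against 9.72 and 17.2 in Ncr1 cells, 29.4 and 26.0 in Ccr6/Cd4 cells and 11.7 and 17.7 in the remaining cells (log2 ratio -1.60 ± 0.35, adjusted p = 0.00201 by edgeR). Its order over the groups thus differed from that of Cdkn2d, which was highest where Cdkn1c was lowest.

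Trp53, the gene of p53, had a UMI in 12.7% to 21.9% of cells over the groups and replicates (chr11:69580359-69591873, plus strand). Its level was 86.1 and 125 CPM in CD3 cells, 121 and 138 in Ncr1 cells, 96.7 and 71.5 in Ccr6/Cd4 cells and 117 and 128 in the remaining cells. Ccr6/Cd4 cells lay below the Ncr1 and the remaining cells without overlap, and CD3 cells overlapped every other group. Ncr1 over Ccr6/Cd4 cells gave 0.65 ± 0.27 (0.37 and 1.03 by replicate), which was not called (adjusted p = 0.223 by edgeR) and rests on 23 and 11 UMIs in Ccr6/Cd4 cells. CD3 over CD3-zero cells gave -0.04 (95% interval -0.31 to 0.24), with replicates on opposite sides of 0 (-0.31 and 0.26).

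Mdm2, the ubiquitin ligase that p53 switches on and that removes p53, was the flattest member (chr10:117688875-117710758, minus strand). Its level ran from 67.3 to 84.4 CPM over all 8 sums, and its log2 ratios were -0.00 (interval -0.28 to 0.28), 0.07 (-0.48 to 0.63) and 0.07 (-0.26 to 0.40) in the 3 comparisons. A single remaining cell of replicate 2 held 18 Mdm2 UMIs, while the mean over that group's positive cells was 1.21. After thinning, 5.41% to 7.64% of cells held an Mdm2 UMI in every group and replicate.

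Sesn1, a p53 target that restrains the growth kinase mTORC1, was not called in any comparison (chr10:41809935-41908424, plus strand). Its level was 27.4 and 29.8 CPM in CD3 cells, 35.9 and 36.7 in Ncr1 cells, 37.8 and 19.5 in Ccr6/Cd4 cells and 37.6 and 25.9 in the remaining cells. Ncr1 cells lay above CD3 cells without overlap, and the other groups overlapped both. Its 3 log2 ratios were -0.13, 0.33 and -0.02.

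Gadd45a, a p53 target that binds PCNA and the MAP kinase kinase kinase MEKK4, was sparse in Ccr6/Cd4 cells (chr6:67035096-67037457, minus strand). Its level there was 37.8 and 6.50 CPM, from only 9 UMIs and 1 UMI. It was 65.8 and 76.9 in Ncr1 cells, 47.3 and 67.6 in CD3 cells and 45.6 and 67.0 in the remaining cells. Ncr1 over Ccr6/Cd4 cells gave 1.55 ± 0.46 (0.84 and 3.64 by replicate, adjusted p = 0.0564 by edgeR), just outside the threshold of 0.05. It was called in 7 of 13 alternative analyses, with ratios from 1.52 to 4.15. It was not called in the other 6, with edgeR adjusted p of 0.0518 with groups from thinned cells, 0.0601 with the looser and 0.127 with the stricter cell filter, 0.132 with T cell receptor cells left out and 0.414 without the block, and 0.145 with DESeq2. The single UMI of replicate 2 has a counting interval of 0.164 to 36.2 CPM, so the size of the ratio is poorly known. The exons of Gadd45a overlap those of the antisense gene E230016M11Rik, whose reads cannot be told apart from its own.

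Gadd45b, which is switched on by NF-kB and TGF-beta signals and activates p38 and JNK through MEKK4, was the most widely detected member (chr10:80930073-80932204, plus strand). A UMI was found in 61.8% of cells of replicate 1 and 50.6% of replicate 2, and positive cells held a mean of 2.35 and 2.19 UMIs. Its level was 666 and 495 CPM in CD3 cells, 702 and 657 in Ncr1 cells, 795 and 656 in Ccr6/Cd4 cells and 722 and 691 in the remaining cells. CD3 cells were lowest in replicate 2 by a wide margin and in replicate 1 by little. Their log2 ratio over CD3-zero cells was -0.22 ± 0.09 (-0.09 and -0.38, adjusted p = 0.111 by edgeR). It was called with the CD3-zero cells summed as 1 group (-0.27, adjusted p = 0.00509), with CD3 cells from at least 2 UMIs (-0.29, adjusted p = 0.0277), and with cells of other types left out (-0.30, adjusted p = 0.0266, and with Fcer1g not counted -0.27, adjusted p = 0.00943). The 3 CD3-zero groups were close, and Ncr1 over Ccr6/Cd4 cells gave -0.01 (interval -0.26 to 0.25).

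Gadd45g, a cytokine-induced member of the same family, was lower in CD3 cells (chr13:51846678-51848468, plus strand). Its level was 53.7 and 33.6 CPM in CD3 cells, 51.6 and 58.6 in Ncr1 cells, 105 and 84.4 in Ccr6/Cd4 cells and 78.5 and 44.9 in the remaining cells. CD3 cells were lowest in replicate 2, but in replicate 1 they stood between the Ncr1 and the remaining cells. The log2 ratio of CD3 over CD3-zero cells was -0.56 ± 0.18, a 1.48-fold difference (-0.43 and -0.80 by replicate, adjusted p = 0.0303 by edgeR). This call was fragile. It ended with DESeq2 (-0.61, adjusted p = 0.137), without the block (-0.59, adjusted p = 0.41), with each cell thinned (-0.48, adjusted p = 0.198), with groups also drawn from thinned cells (-0.48, adjusted p = 0.301), with the stricter cell filter (-0.42, adjusted p = 0.205), and with CD3-zero cells left out for any T cell receptor UMI (-0.16, adjusted p = 0.82) or for Trac or Trdc (-0.50, adjusted p = 0.0549). Its UMIs were concentrated, with 34.0% and 36.6% of those in CD3 cells in the top 1% of cells. In replicate 1, 8.99% of the 267 cells with at least 3 stromal UMIs before thinning held Gadd45g after thinning, against 4.54% of the other cells. With cells of other types left out, Fcer1g not counted, the ratio was -0.91 (adjusted p = 0.000152). Ncr1 over Ccr6/Cd4 cells gave -0.73 ± 0.32, which was not called (adjusted p = 0.259).

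In CD3 over CD3-zero cells, then, 1 of 9 tested members was called higher and 1 lower, where 15.2% of all tested genes were called, 8.81% higher and 6.38% lower. The members' median log2 ratio was -0.00 against 0.05 for all tested genes. In Ncr1 over Ccr6/Cd4 cells the medians were 0.07 and 0.10. In the remaining cells over the mean of Ncr1 and Ccr6/Cd4 cells, 0 of 9 members were called by edgeR, 0 had an unadjusted p under 0.05 and 0 were called by DESeq2, where edgeR called 1.88% of all genes, 1.71% higher and 0.166% lower. The medians there were 0.07 and 0.06. The comparisons share the Ncr1 and Ccr6/Cd4 sums and are not independent of each other.

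**Figure D3:**
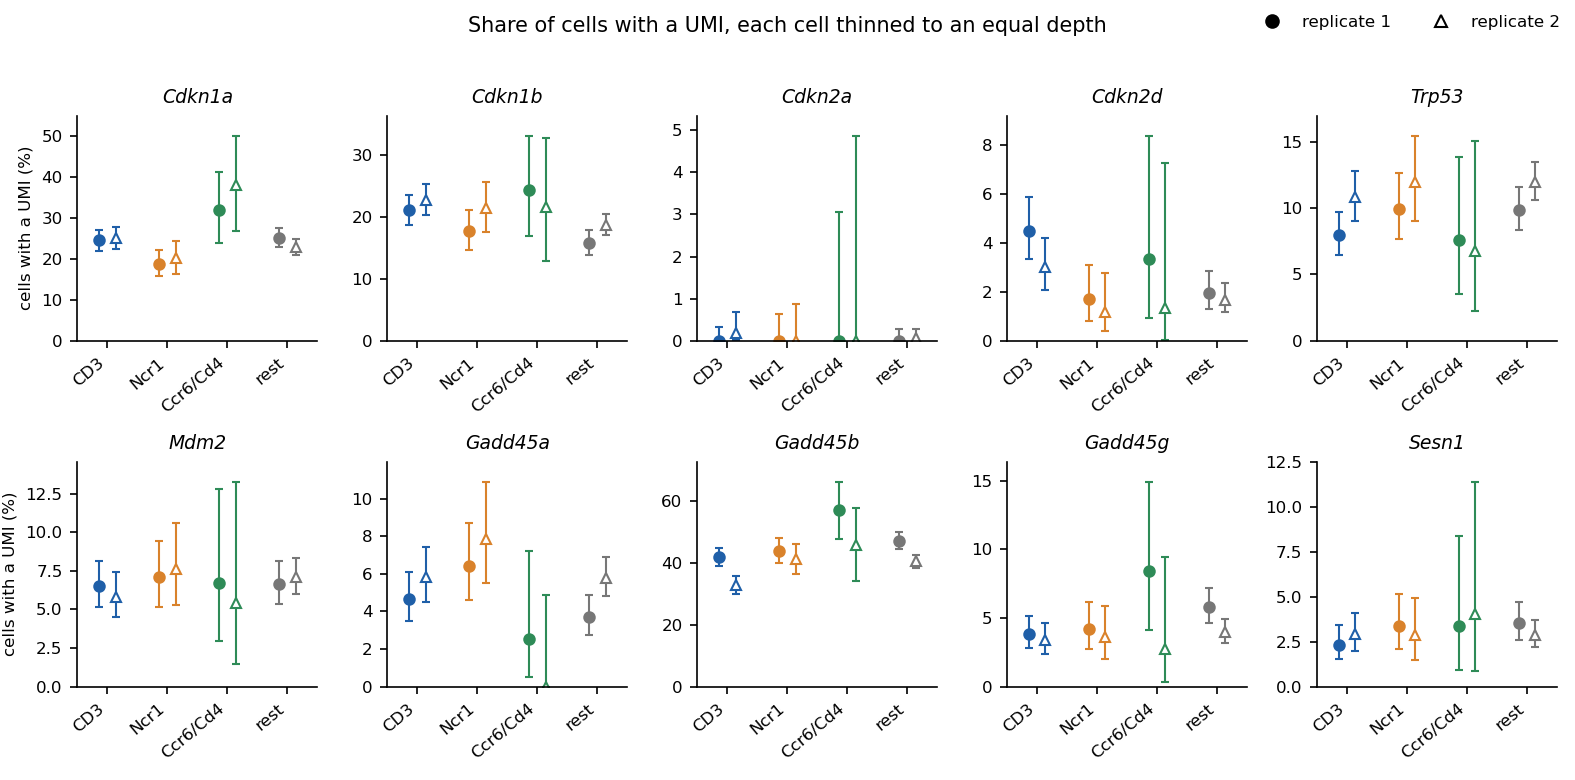
Share of cells with a UMI of each gene (y axis in percent, from 0, on a scale of its own for each gene) after each cell was thinned to 1000 UMIs, by cell group, for replicate 1 (filled circles) and replicate 2 (open triangles), with exact Clopper-Pearson 95% intervals. Gadd45b reached 57.1% and 45.9% of Ccr6/Cd4 cells and 41.9% and 32.9% of CD3 cells, and Cdkn1a 31.9% and 37.8% of Ccr6/Cd4 cells and 18.8% and 20.0% of Ncr1 cells.

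Most single cells held a UMI of few of the 10 genes. At this depth that does not show whether cells express them together, since several members were rarely detected at all. After thinning, Sesn1 was found in 3.08% and 2.92% of all cells of replicates 1 and 2, and Cdkn2d in 2.86% and 2.01%. The number of members per cell was not compared with the number expected from these shares. After thinning, the median cell held a UMI of 1 member in every group and replicate, 15.1% to 30.1% of cells held none, and 5.97% to 12.6% held 3 or more. Gadd45b was found in 51.3% of cells with a Cdkn1a UMI and 43.2% of cells without one in replicate 1, and in 40.6% and 37.8% in replicate 2. Cells are not replicates, and these shares carry no test. In replicate 2, 55.3% (95% interval 49.1% to 61.5%) of the 262 cells with a UMI of the heat shock gene Hspa1a held Gadd45b, against 37.1% (35.4% to 38.7%) of the other cells. Within the 4 groups of that replicate the shares were 48.6% and 31.8% in CD3 cells, 53.3% and 40.4% in Ncr1 cells, 50.0% and 45.6% in Ccr6/Cd4 cells, and 59.1% and 38.9% in the remaining cells. In replicate 1 only 58 cells held Hspa1a, and 39.7% (27.0% to 53.4%) held Gadd45b, with 45.2% among the rest of that replicate.

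Cells with a UMI of Mki67 or Top2a, which mark dividing cells, were few: 95 and 94 after thinning. Their share with Cdkn1b was 13.7% in replicate 1 and 11.7% in replicate 2, and that of other cells 18.5% and 20.6%. The intervals of the dividing cells were 7.49% to 22.3% and 5.99% to 20.0%. Cdkn1a was found in 23.2% and 22.3% of dividing cells and in 23.9% and 23.4% of other cells. Gadd45a was found in 5.26% and 12.8% of dividing cells (1.73% to 11.9% and 6.77% to 21.2%) against 4.48% and 5.74%. These shares over cells of 1 sample are descriptions, and no difference was tested.

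Other genes of these pathways were read from lists. Of 28 other p53 targets 23 were tested. In CD3 over CD3-zero cells 4 were called higher and 0 lower: Tnfrsf10b, a death receptor for TRAIL (log2 ratio 2.43), Pmaip1, encoding the pro-apoptotic NOXA (33.2 and 19.9 CPM in CD3 cells), Sesn3 (0.66) and the kinase Plk3 (0.56). Of all tested genes 8.81% were called higher and 6.38% lower in this comparison. Tnfrsf10b was at 47.6 and 40.2 CPM in CD3 cells and at most 16.4 in any other group. Pmaip1 did not set CD3 cells apart from Ccr6/Cd4 cells, where it was at 33.6 and 19.5 CPM. Some other targets gave small ratios in this comparison, such as Bax with 0.07, Btg2 with -0.13 and Ccng1 with 0.21, none of which was called. The list's median was 0.21 against 0.05 for all genes. In Ncr1 over Ccr6/Cd4 cells Plk3 was higher (1.21) and Pmaip1 lower (-3.82), the latter from levels of 2.24 and 1.15 CPM in Ncr1 cells against 33.6 and 19.5 in Ccr6/Cd4 cells, and the list's median was 0.21 against 0.10. In the remaining cells 0 of 23 were called by edgeR, 3 had an unadjusted p under 0.05 and DESeq2 called 0. Of 9 tested regulators of p53, such as Mdm4, Atm and Atr, 0 were called in any comparison by edgeR or DESeq2, with an unadjusted p under 0.05 for 1, 1 and 0 genes.

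**Figure D4:**
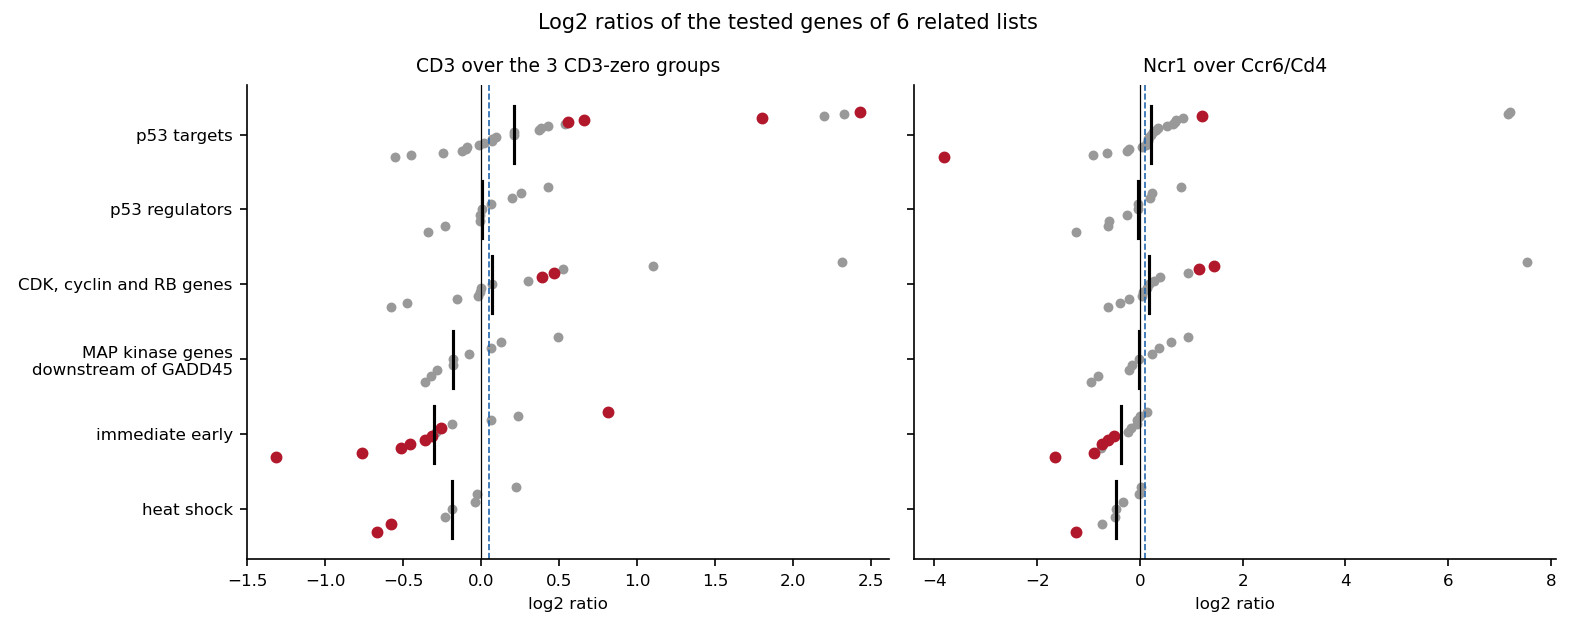
Log2 ratios (x axis) of the tested genes of 6 lists related to the 10 genes, in CD3 over CD3-zero cells (left) and Ncr1 over Ccr6/Cd4 cells (right). Each point is a gene, red marks an adjusted p under 0.05 by edgeR, thick bars are list medians and the dashed line is the median of all 9637 tested genes. Immediate early genes lay below the median of all genes in both comparisons (medians of -0.30 and -0.37), and the p53 targets were spread on both sides of it.

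Among 13 tested CDK, cyclin and RB genes, the D cyclins, which activate the Cdk4 and Cdk6 kinases that INK4 proteins bind, were the called genes. Ccnd2 was at 779.5 and 684 CPM in Ncr1 cells, 765 and 661 in CD3 cells, 607 and 602 in the remaining cells and 298 and 422 in Ccr6/Cd4 cells. Ncr1 over Ccr6/Cd4 cells gave 1.15 ± 0.15 for Ccnd2 and 1.43 ± 0.21 for Ccnd3, and CD3 over CD3-zero cells gave 0.47 and 0.39. The Ccr6/Cd4 cells were thus lowest in Ccnd2 and highest in Cdkn1a in both replicates. The D cyclin calls are edgeR's. DESeq2 called 2 genes of this list in Ncr1 over Ccr6/Cd4 cells and 1 in CD3 over CD3-zero cells. In the remaining cells 0 of 13 were called by edgeR, with 3 at an unadjusted p under 0.05 and 0 by DESeq2. Of 9 tested MAP kinase genes downstream of GADD45 proteins, such as Map3k4 (MEKK4) and Mapk14 (p38), 0 were called in any comparison by edgeR or DESeq2, with 2, 0 and 0 at an unadjusted p under 0.05. In CD3 over CD3-zero cells, 7 of 12 immediate early genes were lower, led by Atf3 (-1.31), Nr4a1 (-0.76), Jun (-0.51) and Fosb (-0.46), and Ier3 was higher (0.81). Their sum was 19312 and 9725 CPM in CD3 cells against 19876 to 30226 and 12382 to 14843 in the other groups, and 2 of 7 heat shock genes, Dnaja1 (-0.67) and Hspa1b (-0.58), were lower. These calls are edgeR's, and DESeq2 called 6 immediate early genes and 1 heat shock gene in CD3 over CD3-zero cells. Gadd45g was lower in CD3 cells too, and the part of the immediate early and heat shock genes in it was not tested.

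The genes whose levels followed a member most closely over the 8 sums, each centred within its replicate, were not members themselves. Idh2, a mitochondrial isocitrate dehydrogenase, was closest to Cdkn1a (r = 0.979), Zmat3 to Mdm2 (r = 0.983), Pdlim7 to Gadd45b (r = 0.986), and Fpgt to Gadd45a (r = 0.997). Among the members, Trp53 and Gadd45a were most alike (r = 0.94), and Cdkn2d and Gadd45g were most opposed (r = -0.87). These values are descriptions over 8 sums that share libraries, and the sparse Ccr6/Cd4 sums weigh heavily in them. Picking the closest of all tested genes favours a high r. For every tested member, the flat Mdm2 included, the closest gene had an r from 0.969 to 0.997. The pairs are thus not shown to be regulated together.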

How the data were processed

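Sorted cells of 2 samples, tag 6 (replicate 1) and tag 12 (replicate 2) of separate libraries, were profiled on the BD Rhapsody system. Per the file headers, the deposited UMI counts per cell and gene came from the BD WTA Multiplex Rhapsody Analysis Pipeline 1.8, with GRCm38, PhiX and GENCODE M19, after recursive substitution error correction. HISAT2 2.0.5, Bowtie2, and the builds mm10 and GRCm38.p6 stand in the submitters' processing notes. Sample tag calls, which are labels with no unit, were deposited per cell. No replicates were pooled. Cells of other tags, multiplets and undetermined cells were not used, and no further doublet caller was run. A gene in only 1 of the tables was read as 0 in the other.

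Kept cells had 300 or more genes and no more than 25% mitochondrial UMIs (3337 of 3427 and 3840 of 3954 cells). Counts were summed per cell group and sample into 8 sums. The main test was the quasi-likelihood F test of edgeR 4.0.16 in R 4.3.3. It used filterByExpr, TMM factors and a block for the sample, since the groups of a sample are different cells of the same library and are paired. P-values were adjusted by Benjamini-Hochberg at 0.05 over 9637 genes, the 6 grouping genes left out. Each gene had 3 residual degrees of freedom. With the block, the test measures how group differences vary between the 2 samples, and edgeR borrows information on spread from all tested genes. Deviations of a sample's groups from the group means correlated between groups of that sample at 0.25 to 0.78 over 6 pairs. An SE is the ratio over the square root of its F, and the 95% intervals use a normal distribution. Ratios of single replicates were fitted on that replicate's 4 sums with the dispersion of the main test, and carry no test. Levels are UMIs per 1000000 (CPM) of a sum, and levels of different genes were not compared per length. Intervals of levels (exact Poisson) and of shares (Clopper-Pearson) cover counting error only, and 0 counts allow up to 3.

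Gene positions, matched by symbol, come from GENCODE M21 (GRCm38), which is newer than the M19 of the pipeline, and promoters from RefSeq on GRCm38.p6, which held all 10 genes. Alternatives were DESeq2 1.42.0, no filter on low counts, no block, thinned cells, other cell filters and group rules, CD3-zero cells as 1 sum, and each replicate alone. Leaving out cells of other types without counting Fcer1g, and CD3-zero cells with Trac or Trdc, were chosen after seeing the data. The 10 genes and all lists were chosen with earlier results of these data known. All 10 genes are named; of each list up to 4 called genes with the lowest adjusted p, and for likeness the genes with the highest Pearson r. Uncalled p53 targets, uncalled genes given as examples of a list, Ier3, and Atf3 in Ncr1 cells were named after their values were seen. The test was checked on simulated counts, for CD3 over CD3-zero cells only. It called 18 of 66 genes changed 1.5-fold, 36 of 62 changed 2-fold and 54 of 64 changed 4-fold. False calls numbered 5 in a run of 9289 genes. The drawn counts held no difference between samples and the same spread for every gene. A gene not called may therefore still differ by such folds. One marker's result is not reported here.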

Additional observations from a re-analysis of the deposited data

How the results depend on the processing

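Depth limits the sparse genes: 1 UMI decides the Gadd45a level of Ccr6/Cd4 cells in replicate 2, and the Cdkn2d ratio rests on 4 UMIs and 1 UMI there. With 1 replicate left, no test is possible, and ratios by replicate stand in the report.

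The replicate block decided most calls. With no replicate block, the genes called numbered 167 in CD3 over CD3-zero cells, 10 in Ncr1 over Ccr6/Cd4 cells and 0 in the remaining cells, against 1464, 439 and 181 with it, and the members called were 0, 0 and 0. The Trp53 ratio in CD3 cells was then 0.0034.

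In CD3 over CD3-zero cells, 2 members were called in the main test, 0 with DESeq2, 1 with thinned cells, 1 with groups also drawn from thinned cells, 1 with the stricter cell filter, 0 with any T cell receptor cells left out (682 genes called, Cdkn2d not tested), 1 with Trac or Trdc cells left out, 3 (Gadd45b added) with CD3 cells from 2 UMIs and with other cell types left out, Fcer1g counted or not, and 4 with the CD3-zero cells as 1 sum. In Ncr1 over Ccr6/Cd4 cells, 1 was called in the main test, 0 with any T cell receptor cells left out, and 2 (Cdkn1a and Gadd45a) with no filter on low counts, thinned cells, CD3 cells from 2 UMIs, other cell types left out with or without Fcer1g counted, dividing cells left out, and Trac or Trdc cells left out. Genes called there were 253 with groups from thinned cells and 157 without T cell receptor cells. In the remaining cells, genes called were 27 with DESeq2, 314 with no filter, 96 with thinned cells, 93 with groups from thinned cells, 104 without T cell receptor cells, and 19 or 76 without other cell types (Fcer1g counted or not), and members called were 0 in each.

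Ratios that changed sign were all of uncalled genes, and the cause was not tested. In CD3 cells, Mdm2 became 0.020 (no filter), 0.16 (T cell receptor cells out), 0.21 and 0.029 (other types out, Fcer1g counted or not) and 0.049 (Trac or Trdc out). Trp53 became 0.024 (thinned), 0.022 (T cell receptor cells out), 0.18 and 0.016 (other types out). Sesn1 became 0.0036 (stricter filter) and Gadd45a -0.031 (1 sum). In Ncr1 over Ccr6/Cd4 cells, Gadd45b became 0.036 (no filter), 0.050 (thinned), 0.27 (groups from thinned cells) and 0.056 (other types out). Cdkn2d became -0.59 and Sesn1 -0.0035 with thinned cells, and -1.59 and -0.40 with groups from them. Cdkn1b became 0.049 (other types out). In the remaining cells, Sesn1 became 0.030 (no filter), 0.0054 (thinned), 0.24 (groups from thinned cells), 0.61 and 0.12 (other types out) and 0.021 (dividing cells out). Gadd45g became 0.17 (thinned), 0.46 (groups from thinned cells) and 0.51 (T cell receptor cells out). Cdkn1a became 0.031, 0.46 and 0.14 with groups from thinned cells, T cell receptor cells out and other types out. Mdm2 became -0.0025 (stricter filter) and Gadd45b -0.092 (T cell receptor cells out).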
